A study of Mus musculus with 22 samples.

Results

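Whole dorsal root ganglia (DRG) of wild-type mice treated with imiquimod (IMQ) were compared with those of wild-type mice treated with vehicle. The comparison rests on 5 of the 22 libraries of the series: 3 of vehicle ganglia and 2 of IMQ ganglia. The ganglia were taken from spinal levels T10 to L5 after 5 days of treatment, and both groups are labelled WT for genotype. The remaining libraries came from Postn-deficient ganglia, which served here only to estimate the spread between libraries, and from neuron cultures, which were not used. All 17197 genes that passed a filter on low counts were tested, of 55487 genes in the deposited table. The labels used here do not give strain, age, sex, the route of application or whether animals were pooled. None says that replicates are separate animals, so each p-value measures the spread between libraries. That spread was estimated over all 10 ganglion libraries of both genotypes, not over the 5 wild-type libraries alone. The series asks what periostin, a secreted matrix protein, does in sensory ganglia in psoriasis.

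A DRG holds the cell bodies of the sensory neurons that supply skin and deeper tissues, each wrapped by satellite glia. Their axons run in bundles with myelinating and non-myelinating Schwann cells, fibroblasts, vessels and resident macrophages, which sense injury and inflammation and clear debris. IMQ is an agonist of the endosomal receptor TLR7 and, on skin, causes a psoriasis-like inflammation used as a mouse model. TLR7 signals through MyD88 and IRF7 to inflammatory cytokines and type I interferon. In whole tissue, more cells of a type cannot be told apart from more RNA per cell.

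Total counts were 17.32, 18.8 and 20.01 M (mega) in vehicle libraries 1 to 3 and 19.65 and 16.84 M in IMQ libraries 1 and 2. Levels are given as counts per M (CPM) on library sizes scaled by TMM, in the order of those libraries. A level compares libraries for 1 gene and not genes with each other, since it is not divided by gene length. A pair of libraries stood apart. IMQ library 2 had 0.176 CPM of Xist, which silences 1 X chromosome in females, where the others had 219.5 to 235.6 CPM. The 4 Y-linked genes examined added up to 139.3 CPM in it and to 0 in the others. Vehicle library 1 differed by more than 2-fold from vehicle 2 and 3 in 409 and 348 genes, where vehicle 2 and 3 differed so in 50 and the IMQ libraries in 114. In vehicle 1 the 17 myelin genes examined summed to 16399 CPM, against 11023 and 10666 CPM in vehicle 2 and 3. Counts of genes, and calls that rest on these libraries, are therefore also given without them.

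With IMQ, 224 genes changed, which is 1.3% of the genes tested (edgeR quasi-likelihood test, adjusted p below 0.05). Of these, 193 rose (1.12%) and 31 fell (0.18%). The median log2 fold change was 1.94 among the genes that rose and -1.10 among those that fell, beside -0.008 over all genes tested. At least a 4-fold difference was seen for 88 of the genes that rose and 3 of those that fell. All 224 had libraries that did not overlap between the groups, which was so for 21.5% of all genes tested. A fold change above 0 was found for 48.2% of all genes tested. The genes that rose were mostly of low or middle level: 35 averaged under 1 CPM with vehicle, and when all genes were split by mean level into 4 groups of equal size, those groups held 66, 120, 28 and 10 of the called genes, from lowest to highest. Without vehicle 1 there were 145 higher and 15 lower genes, and without IMQ 2 there were 77 higher and 5 lower. Of the 224 genes, 153 were lost in at least 1 of the 5 fits that each left out 1 library, and 71 were called in all of them.

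**Figure D1:**
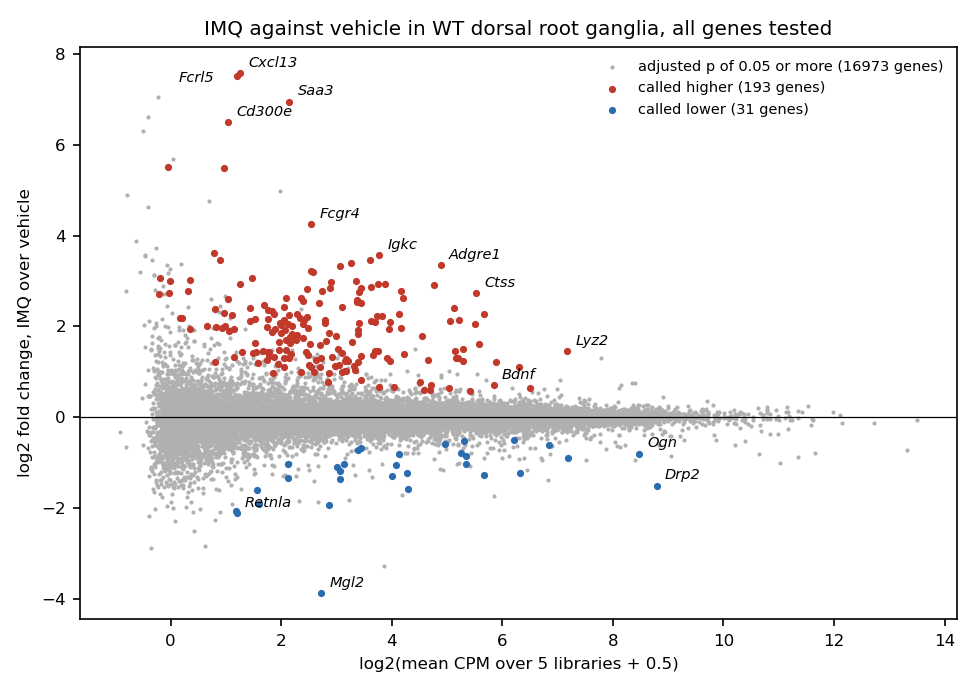
Each point is 1 of 17197 genes, with its mean level over the 5 libraries on the x axis, as log2(CPM + 0.5), and its log2 fold change (IMQ over vehicle) on the y axis. The 193 red genes lie mostly at low and middle levels above 0, and the 31 blue genes lie below 0, with Mgl2 lowest.

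Macrophage genes were prominent among those that rose. Of the 193 higher genes, 80 belonged to at least 1 of the 47 gene lists examined, which cover many cell types and pathways. Those lists held 713 of the 17197 genes tested and were chosen with earlier results of these data known. The numbers of list members that rose, here and below, stand beside 1.12% of all genes tested. Of 16 macrophage identity genes, 12 rose and none fell, with a median log2 fold change of 2.04. Their summed level was 119.6, 116.7 and 108.5 CPM with vehicle and 375.5 and 386.8 CPM with IMQ. Adgre1 (F4/80, an adhesion receptor used to mark mouse macrophages) stood at 6.33, 6.92 and 5.46 CPM with vehicle and 62.2 and 64.4 CPM with IMQ. Its log2 difference was 3.34 ± 0.16 (SE, edgeR adjusted p = 2.56e-05), and 3.32 without IMQ 2. All 3 vehicle libraries were far below both IMQ libraries. Csf1r, the receptor for the growth factor that macrophages depend on, was at 26.8, 25.9 and 22.6 CPM against 57.4 and 61.4 CPM, a log2 difference of 1.24 ± 0.11 (adjusted p = 0.000556). Cx3cr1, the fractalkine receptor, was at 5.5, 7.81 and 6.96 CPM against 32.6 and 32.8 CPM, a difference of 2.27 ± 0.19 (adjusted p = 0.000402). Itgam, the CD11b integrin chain of myeloid cells, rose from 1.72, 2.04 and 1.85 CPM to 22.3 and 17.5 CPM (log2 3.41 ± 0.26, adjusted p = 0.000241). The fitted log2 differences of these 4 markers thus ran from 1.24 to 3.41.

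Some macrophage genes did not follow. Mertk, a receptor for the uptake of dead cells, was at 27.7, 27.2 and 29.2 CPM with vehicle and 18.4 and 20.8 CPM with IMQ (log2 -0.52 ± 0.17, adjusted p = 0.357). Trem2, a lipid-sensing receptor, was at 2.72, 2.1 and 1.45 CPM against 2.69 and 3.34 CPM and overlapped between the groups. Cd68 and Cd14, a lysosomal protein and the co-receptor for bacterial lipopolysaccharide, had log2 differences of 0.89 and 1.12 that missed the threshold (adjusted p = 0.0579 and 0.0621). Without IMQ 2, 9 of the 16 genes were called, and without vehicle 1, 12.

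Among 12 tested genes of resident and alternatively activated macrophages, 1 rose and 2 fell. Fold changes were above 0 for 10 of the 12, beside 48.2% of all genes tested, with a median of 0.54 on the log2 scale. The summed level of the list was 226, 243 and 243 CPM with vehicle and 322 and 321 CPM with IMQ. Stab1, a scavenger receptor, was at 19.3, 21.8 and 20.6 CPM with vehicle and 56.5 and 57.1 CPM with IMQ (log2 1.47 ± 0.15, adjusted p = 0.000942). Mgl2, the lectin CD301b of alternatively activated macrophages and dermal dendritic cells, fell the furthest of all called genes, from 9.82, 8.76 and 10.6 CPM to 0.457 and 0.879 CPM. Its log2 difference was -3.87 ± 0.32 (adjusted p = 0.000402), and -4.39 without IMQ 2 and -3.86 without vehicle 1. Retnla, a secreted protein induced by interleukin 4, fell from 3.02, 2.46 and 2.3 CPM to 0.813 and 0.352 CPM (log2 -2.11 ± 0.40, adjusted p = 0.0377). That call was lost without IMQ 2 (adjusted p = 0.342) and without vehicle 1 (0.0933). Mrc1, the mannose receptor, was at 18, 24.1 and 21.8 CPM against 40.2 and 41.1 CPM, and missed the threshold at an adjusted p of 0.0521. Mgl2 and Retnla, often listed with Mrc1, were thus lower in both IMQ libraries, where Mrc1 was higher.

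**Figure D2:**
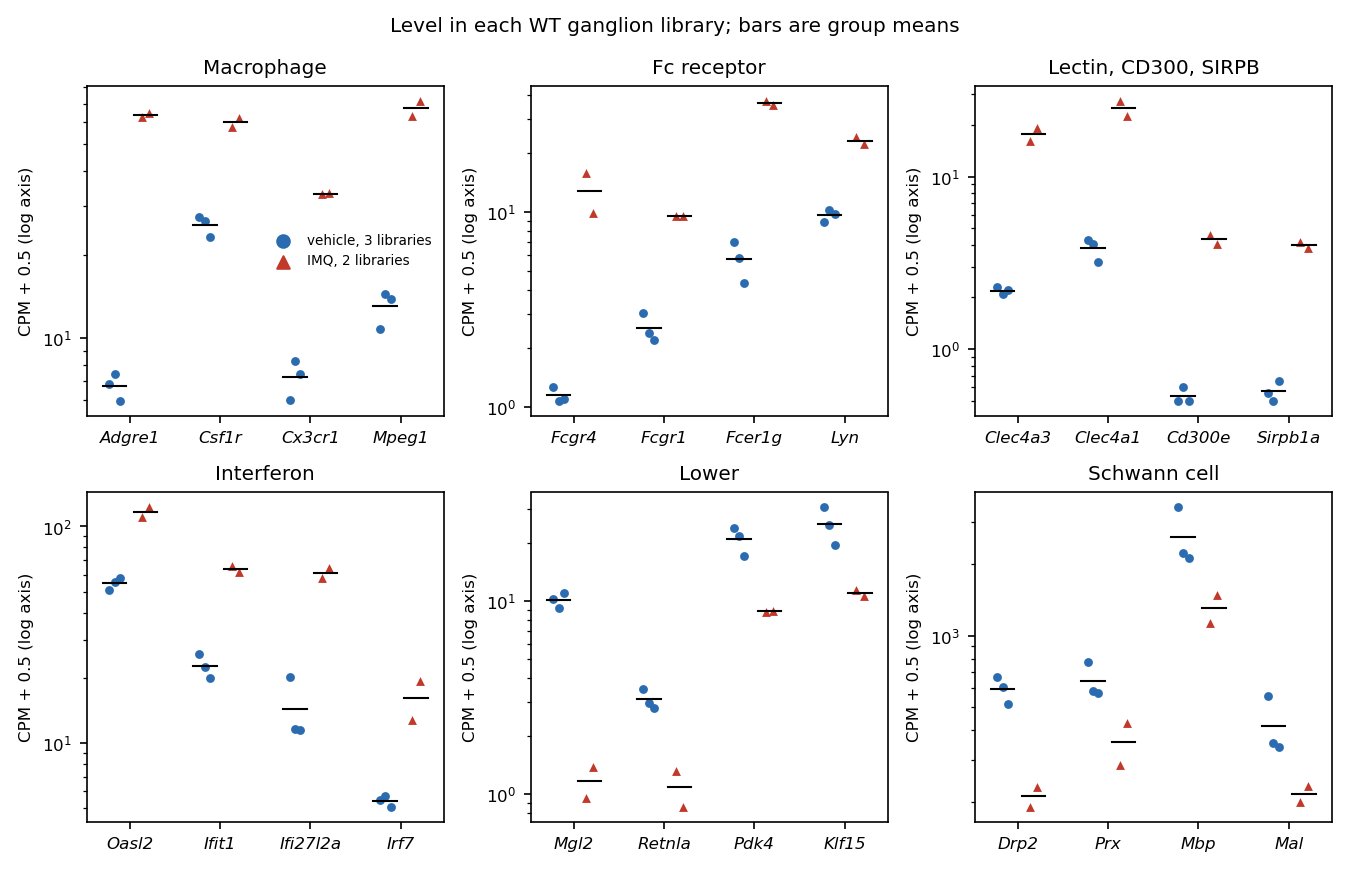
Level of 24 genes in each of the 5 libraries, as CPM + 0.5 on a log axis, with vehicle libraries as blue circles, IMQ libraries as red triangles and group means as bars. The groups do not overlap for any gene shown, and Mbp, Mal and Prx of the Schwann cell panel are among those that did not pass the test.

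Receptors for antibodies and the kinases behind them rose. Of 17 tested genes of Fc receptors and ITAM signalling, the tyrosine-based relay that such receptors use, 14 rose and none fell, with a median log2 fold change of 1.51. Fcgr4, an activating receptor for IgG2 antibodies, stood at 0.769, 0.577 and 0.601 CPM with vehicle and 15.3 and 9.38 CPM with IMQ (log2 4.25 ± 0.33, adjusted p = 0.000268). Fcgr1, the high-affinity IgG receptor, rose from 2.54, 1.89 and 1.7 CPM to 8.99 and 9.02 CPM (log2 2.14 ± 0.23, adjusted p = 0.00126). Their shared signalling chain Fcer1g rose from 6.51, 5.3 and 3.85 CPM to 36.6 and 34.7 CPM (log2 2.78 ± 0.29, adjusted p = 0.00126). The inhibitory receptor of the family, Fcgr2b, also rose, with 7.81, 8.39 and 7.76 CPM against 14.5 and 13.7 CPM (log2 0.82 ± 0.13, adjusted p = 0.0148). Of the kinases and phosphatases downstream, Lyn, Syk, Fgr, Inpp5d and Ptpn6 rose, with log2 differences of 1.31, 1.51, 1.90, 1.24 and 1.92. Both activating and inhibitory members were thus among the genes that rose. Btk and Plcg2 missed the threshold (adjusted p = 0.0795 and 0.158), and Fcgrt, the neonatal Fc receptor of many cell types, had a log2 difference of -0.03. Without IMQ 2, 8 of the 17 were called, and without vehicle 1, 12. Fcgr2b was called in 1 of the 5 fits that left out a library, and Syk and Fgr in 0.

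Of 22 tested C-type lectin, CD300 and paired immunoglobulin-like receptors, surface proteins by which myeloid cells sense sugars and lipids, 11 rose and none fell, with a median log2 fold change of 1.42. Clec4a3, a lectin of monocytes and macrophages, rose from 1.77, 1.57 and 1.7 CPM to 15.6 and 18.5 CPM (log2 3.34 ± 0.17, adjusted p = 2.56e-05). Clec4a1 and Clec4a2 of the same gene cluster had log2 differences of 2.87 and 3.00, and the family held 4 called genes of 7 tested. Cd300e, a receptor of patrolling monocytes, had 2 reads over the 3 vehicle libraries and 141 over the IMQ libraries. That ratio, scaled for depth, is 107-fold with a 95% interval of 29.2 to 895 (counting error only). Sirpb1a, an activating receptor, had 4 reads against 129, a ratio of 49.1 (18.7 to 183). Both were almost unread in every vehicle library and present in both IMQ libraries. Without IMQ 1, 7 of the 22 were called. The lectins Clec7a, Clec5a and Clec4d did not pass, with log2 differences of -0.45, 0.02 and 0.51. Members of the Sirpb1 and Clec4a families have close sequence copies, so reads could be shared among them by the authors' counting.

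Complement and lysosome genes rose in part. Of 19 tested complement genes 6 rose, among them the 3 chains of C1q, which starts the classical pathway and is made by tissue macrophages. C1qb and C1qc were called in each of the 5 fits that left out a library, and C1qa in 1. C1qc was at 17.3, 15.7 and 13.8 CPM with vehicle and 74.1 and 62.9 CPM with IMQ (log2 2.13 ± 0.16, adjusted p = 0.000212). C3ar1, the receptor for the fragment C3a, rose from 3.37, 4.04 and 2.65 CPM to 19.8 and 19.5 CPM (log2 2.55 ± 0.26, adjusted p = 0.00116). C3 itself and C4b, made by many cell types, overlapped between the groups, with log2 differences of 0.22 and 0.13. Of 25 lysosome and phagosome genes 7 rose. Ctss, a cathepsin of antigen-presenting cells, rose from 14.6, 14.4 and 13.1 CPM to 95.1 and 90.7 CPM (log2 2.73 ± 0.18, adjusted p = 0.000124). Cybb, the catalytic subunit of the phagocyte oxidase, rose from 7.45, 7.66 and 7.86 CPM to 20.6 and 21.3 CPM (log2 1.45 ± 0.14, adjusted p = 0.000942). Lyz2, the lysozyme of myeloid cells and the gene with the highest IMQ mean among those that rose, was at 94.4, 83.8 and 74.6 CPM against 239 and 223 CPM (log2 1.46 ± 0.21, adjusted p = 0.00802). Ctsb, Ctsd and Ctsl, cathepsins that most cells hold, had log2 differences of 0.09, -0.03 and 0.03 and overlapped between the groups. Of the 7 genes that rose, Grn, the precursor of granulins, had the smallest log2 difference, at 0.64, and 0.43 without IMQ 2 (adjusted p = 0.49). Of the 7 calls, 3 were left without IMQ 2, 4 without IMQ 1, 3 without vehicle 3 and 4 without vehicle 2. Lyz2 was among those lost without IMQ 2 (adjusted p = 0.0635) and without IMQ 1 (0.076).

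Genes of Toll-like receptor signalling, the pathway that IMQ engages, were examined next. Of 24 tested, 7 rose and none fell, with a median log2 fold change of 0.86. Unc93b1, the chaperone that carries TLR7 and its relatives to the endosome, rose from 12.8, 12.1 and 9.96 CPM to 40.8 and 39.1 CPM (log2 1.78 ± 0.14, adjusted p = 0.000241). Cd180, a TLR-like receptor that modulates TLR signalling, rose from 0.71, 0.944 and 1.2 CPM to 4.93 and 5.8 CPM (log2 2.47 ± 0.26, adjusted p = 0.0012). Tlr1, Tlr2 and Tlr13 rose as well, with log2 differences of 2.62, 1.95 and 1.34. Tlr7 itself was at 3.19, 3.3 and 2.2 CPM with vehicle and 5.69 and 4.81 CPM with IMQ, and its difference of 0.86 ± 0.21 did not pass (adjusted p = 0.124). Its libraries did not overlap, as for 21.5% of all genes. Tlr4 and Tlr3, receptors for lipopolysaccharide and double-stranded RNA, had log2 differences of 0.25 and 0.14, and the adaptors and kinases Traf6, Irak1 and Irak4 of -0.06, -0.06 and 0.35. Without IMQ 2 the called genes of this list numbered 2, Unc93b1 and Cd180, and without vehicle 3 there were 3. Without IMQ 2 Tlr1 and Tlr13 had adjusted p of 0.0561 and 0.0599.

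Interferon-stimulated genes are those that cells switch on after type I interferon. Of 41 tested, 8 rose and none fell, and the median log2 fold change was 0.69. All 41 had a fold change above 0, beside 48.2% of all genes tested. Libraries did not overlap for 33 of them, beside 21.5% of all genes tested. Oasl2, an antiviral synthetase-like protein, rose from 50.2, 55.2 and 57.1 CPM to 110 and 122 CPM (log2 1.10 ± 0.12, adjusted p = 0.00161). Ifit1, which binds foreign RNA caps, rose from 25.4, 21.9 and 19.4 CPM to 65.5 and 61.4 CPM (log2 1.51 ± 0.17, adjusted p = 0.00218). Ifi27l2a rose from 19.6, 11.1 and 11.1 CPM to 57.5 and 63.9 CPM (log2 2.13 ± 0.29, adjusted p = 0.00612), and Irf7, the transcription factor downstream of TLR7, from 4.97, 5.19 and 4.55 CPM to 12.3 and 18.9 CPM (log2 1.67 ± 0.25, adjusted p = 0.00973). Several genes often used to read interferon did not pass: Isg15, Ifit3 and Rsad2 had log2 differences of 0.19, 0.21 and 0.15 and overlapped between the groups. Without IMQ 2 the count fell to 2 genes, Oasl2 and Ifit1, and without vehicle 1, vehicle 3 and IMQ 1 it was 5, 3 and 5. The call of Ifi27l2a was lost without IMQ 2 (adjusted p = 0.0652). Irf7 was higher in IMQ 2 than in IMQ 1, and its call was lost without IMQ 2 (adjusted p = 0.117).

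Promoters of 4 genes that rose, each with a match to a pattern given below, are shown because members of both the interferon and the myeloid lists rose. Each stretch runs from 150 bases before the annotated start to 30 after it, 5′ to 3′ on the gene's strand, from RefSeq on build GRCm38.p6. Capitals mark matches on either strand to GAAANNGAA, the core of the interferon-stimulated response element (ISRE), or to GAGGAAGT, the core bound by the myeloid factor PU.1, whose gene Spi1 rose as well (log2 1.97 ± 0.36, adjusted p = 0.0298, called in 0 of the 5 fits that left out a library). The first is Ifit1 at chr19:34640739-34640918 on the plus strand, the second Fcgr4 at chr1:171018776-171018955 on the plus strand, the third Ctss at chr3:95526636-95526815 on the plus strand and the last Cd72, a receptor of B cells and some macrophages, at chr4:43454597-43454776 on the minus strand.
Ifit1: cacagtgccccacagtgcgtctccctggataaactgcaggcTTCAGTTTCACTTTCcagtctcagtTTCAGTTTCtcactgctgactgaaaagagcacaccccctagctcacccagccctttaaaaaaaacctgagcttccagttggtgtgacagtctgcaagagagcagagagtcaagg
Fcgr4: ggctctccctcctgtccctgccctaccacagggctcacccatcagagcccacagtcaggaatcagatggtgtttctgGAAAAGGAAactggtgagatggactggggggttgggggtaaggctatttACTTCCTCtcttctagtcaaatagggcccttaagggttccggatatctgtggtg
Ctss: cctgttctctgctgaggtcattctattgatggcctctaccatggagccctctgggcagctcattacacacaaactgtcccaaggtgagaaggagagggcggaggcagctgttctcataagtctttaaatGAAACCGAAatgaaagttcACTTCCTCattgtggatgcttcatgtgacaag
Cd72: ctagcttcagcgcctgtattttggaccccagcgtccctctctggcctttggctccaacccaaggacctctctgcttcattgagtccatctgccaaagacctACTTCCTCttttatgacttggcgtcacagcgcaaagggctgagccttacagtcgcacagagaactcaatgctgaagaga

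Ifit1 holds 3 ISRE core matches, which overlap in part, the first starting 109 bases before the start. Fcgr4 holds 1 match of each kind, 73 and 24 bases before the start, and Ctss holds 1 of each, 21 and 2 bases before it. Cd72 holds a PU.1 core match 49 bases before its start. In windows of 300 bases, 250 before and 50 after the start, the ISRE core was found in 8.56% of all 32851 promoters and in 19.4% of the 180 promoters of genes that rose. It was in 4.76% of the 42 promoters of genes that fell and in 60.6% of the 33 promoters of the interferon-stimulated list. The PU.1 core was found in 3.2% of all promoters, in 13.9% of those of genes that rose, in 2.38% of those of genes that fell and in none of the interferon-stimulated list. Matches to 1 pattern can overlap each other, as in Ifit1, but no match to the ISRE core overlaps one to the PU.1 core in the 4 stretches shown. These matches are letters in a window and say nothing of binding. RefSeq promoters were matched by symbol for 149 of the 193 genes that rose and 26 of the 31 that fell. Of those 149 genes, 22.1% held the ISRE core and 16.1% the PU.1 core. The 4 genes shown, which all hold a match, are thus not typical of the genes that rose. Oasl2 and Irf7 held no match to either pattern in the window of 300 bases, nor did Itgam, Fcer1g, Fcgr1 and Mpeg1.

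Genes of antigen presentation were examined by class. All 17 tested genes of MHC class I, which displays peptides from inside the cell, had a fold change above 0, beside 48.2% of all genes tested. Their median was 0.66 on the log2 scale, and none passed the test. H2-D1 was at 253, 201 and 222 CPM with vehicle and 347 and 395 CPM with IMQ (log2 0.72 ± 0.19, adjusted p = 0.16). Of 13 tested genes of MHC class II, which macrophages and dendritic cells display, 7 had a fold change above 0. The median was 0.36 on the log2 scale, -0.20 with the 5 WT libraries alone and -0.08 without IMQ 2. The 6 below 0 were chains of class II molecules or of those that load them. H2-Aa was at 39, 28.4 and 27.5 CPM with vehicle and 19 and 25.5 CPM with IMQ (log2 -0.51 ± 0.38), and Cd74, the invariant chain, at 41.7, 27.8 and 30.2 CPM against 23.5 and 34 CPM (log2 -0.21 ± 0.37). H2-Ab1, H2-Eb1, H2-DMa and H2-DMb1 were likewise below 0, from -0.52 to -0.27, and none of these passed (adjusted p of 0.923 or more). H2-DMb2 and H2-Ob, also class II chains, were above 0, at 0.38 and 0.36. Of the 13 genes Ctss alone rose. No class II chain passed the test in either direction in the libraries in which Adgre1 and Itgam rose.

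Markers of other blood-derived cells were examined for what else the ganglia held. Of 11 tested monocyte genes 4 rose, among them Ccr2, the receptor that brings monocytes into tissue, from 5.56, 6.34 and 5.41 CPM to 10.9 and 12.1 CPM (log2 0.99 ± 0.17, adjusted p = 0.0187). That call was lost in each of the 5 fits that left out a library (adjusted p = 0.064 without vehicle 1, 0.0945 without IMQ 1 and 0.197 without IMQ 2), and the list's count fell to 2 without IMQ 2 and to 1 without IMQ 1. Ly6c2, the marker of classical monocytes, was at 1.77, 1.47 and 1.1 CPM against 2.59 and 3.63 CPM and did not pass (log2 1.10 ± 0.76). Of 14 neutrophil genes only Csf3r, the G-CSF receptor, rose, and its call too was lost in each of those fits (adjusted p = 0.0871 without vehicle 1 and 0.216 without IMQ 2). S100a8 and S100a9, the abundant granule proteins of neutrophils, were at 18.4 to 24.3 and 28.3 to 37.4 CPM with vehicle and at 35.5 and 28.4 and at 58.3 and 44.2 CPM with IMQ, with log2 differences of 0.52 ± 0.90 and 0.59 ± 0.85. Among 8 dendritic cell genes only Irf8 rose, a factor that macrophages also express, and not without IMQ 2 (adjusted p = 0.0551). Cd209a and Siglech had log2 differences of -1.53 and -1.09 that did not pass.

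Genes of lymphocytes were examined in turn. Cd8a was the 1 of 9 T and NK cell genes that rose, from 0.118, 0.105 and 0.1 CPM to 0.66 and 0.82 CPM, a call lost without IMQ 2 (adjusted p = 0.153). Of 12 B and plasma cell genes 4 rose and 8 had a fold change above 0, and their summed level was 48.5, 45.2 and 49.4 CPM with vehicle and 107.9 and 163.5 CPM with IMQ. Igkc, the constant region of the kappa light chain, went from 3.14, 2.04 and 2.15 CPM to 16.4 and 41.8 CPM (log2 3.58 ± 0.64, adjusted p = 0.0265), and Jchain, of secreted IgA and IgM, from 1.95, 1.05 and 1.5 CPM to 5.64 and 12.9 CPM (log2 2.62 ± 0.52, adjusted p = 0.0469). Both were highest in IMQ 2, and neither was called without it. Neither was called without vehicle 1 (adjusted p = 0.0635 and 0.0852). Igkc was called in 1 of the 5 fits that left out a library, and Jchain in 0. The B cell markers did not go one way, and none of the following passed. Ms4a1, Pax5 and Cd79a had log2 differences below 0, from -1.51 to -0.71. Cd79b, the partner of Cd79a, was at 1.01, 1.36 and 1.6 CPM against 3.56 and 2.7 CPM (log2 1.23, adjusted p = 0.647), and Ighm, the IgM heavy chain, at 27.2, 25 and 25.3 CPM against 32.8 and 67.4 CPM (log2 0.95, adjusted p = 0.48). The remaining called genes of the list were Cd72 and Fcrl5. Cd72 rose from 1.83, 2.83 and 2.35 CPM to 31.6 and 20 CPM (log2 3.46 ± 0.32, adjusted p = 0.000665). Fcrl5, an Fc receptor-like protein, had 1 read over the vehicle libraries and 167 over the IMQ libraries, a ratio of 254 (95% interval 45 to 10100, counting error only).

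Few secreted signals passed. Of 24 chemokine and chemokine receptor genes 5 rose, and 2 to 3 in each of the 5 fits that left out a library. Ccl9, a chemokine of macrophages, rose from 4.44, 5.4 and 5.01 CPM to 11 and 10.7 CPM (log2 1.13 ± 0.19, adjusted p = 0.0193), a call lost in each of those fits (adjusted p = 0.0664 without vehicle 1 and 0.157 without IMQ 2). Cxcl13, which attracts B cells, had 1 read over the vehicle libraries and 179 over the IMQ libraries, a ratio of 273 (95% interval 48.3 to 10820, counting error only). The IMQ libraries themselves differed, at 7.37 and 1.99 CPM. Cxcl13 was called in 2 of the 5 fits that left out a library, and not without IMQ 1, vehicle 2 or vehicle 3. Saa3, an acute phase protein of inflamed tissue and macrophages, had 4 reads against 353, a ratio of 134 (52 to 496), with 8.48 and 10.9 CPM in the IMQ libraries. Ccl2, the main monocyte attractant, stood at 6.45, 5.19 and 3.35 CPM against 5.28 and 5.51 CPM and did not differ beyond the spread. The cytokines that drive psoriatic skin were hardly read: Il17a had 0 counts in all 5 libraries, and Il17f, Il22 and Il23a had 1, 0 and 9 over the vehicle libraries and 2, 1 and 1 over the IMQ libraries. A count of 0 allows up to 3 counts in a library. Of 15 tested genes of that list the receptors Il10ra and Tnfrsf1b rose, with log2 differences of 1.16 and 1.25, and Tnfrsf1b not without IMQ 2 (adjusted p = 0.0568).

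**Figure D3:**
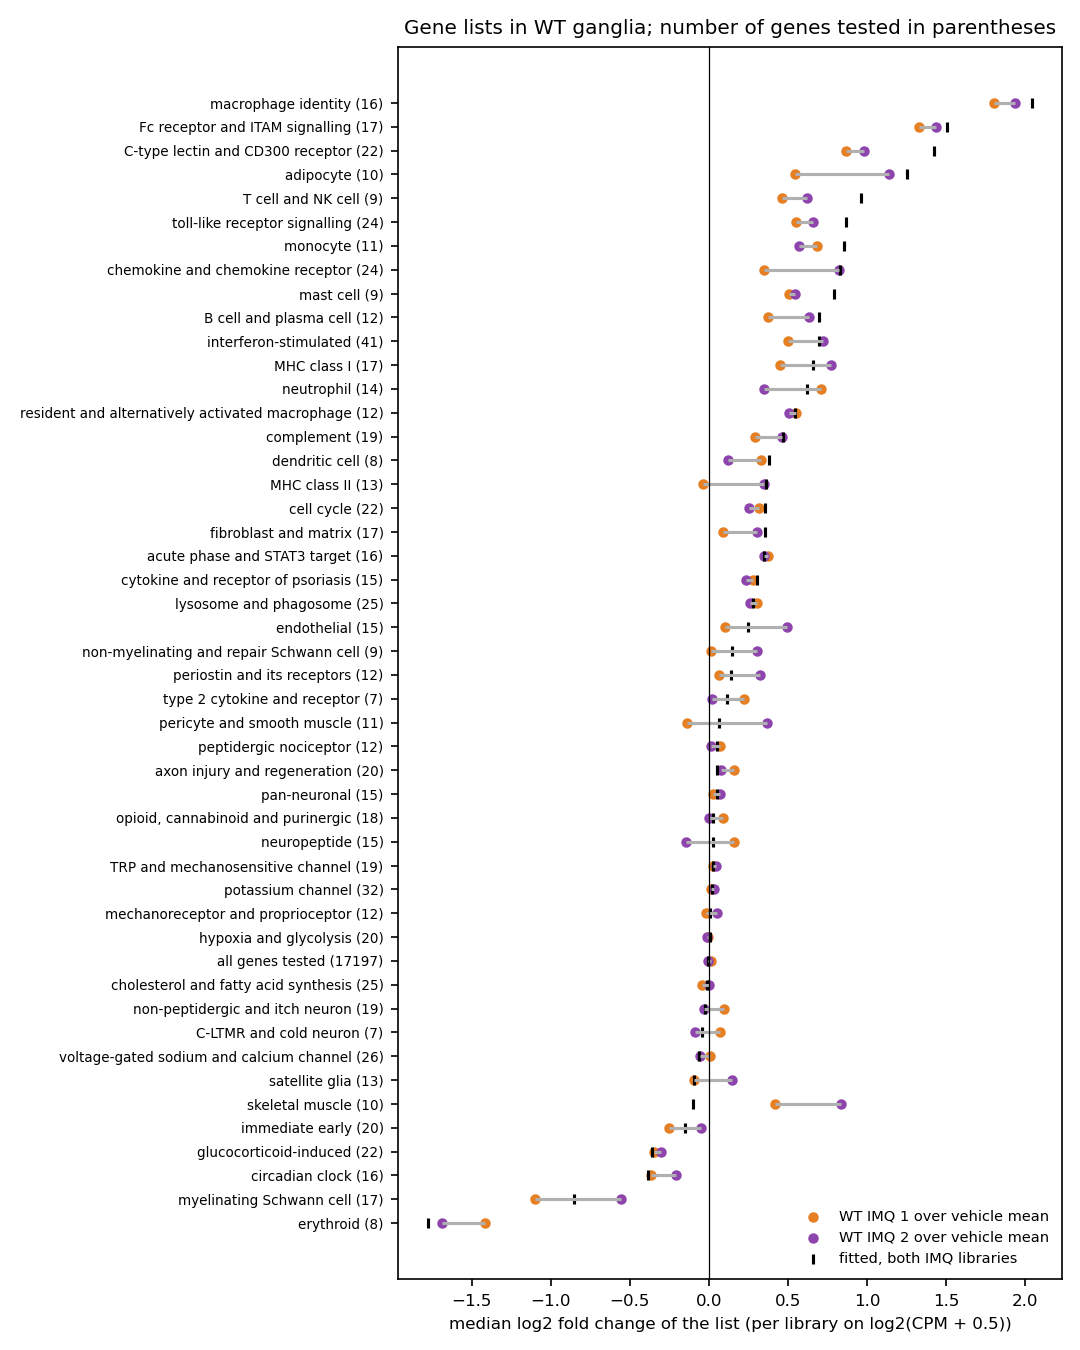
Median log2 fold change of each of 47 gene lists and of all genes tested, for WT IMQ 1 (orange), WT IMQ 2 (purple) and the fit over both (black bar). Macrophage identity and Fc receptor lists lie furthest right at 2.04 and 1.51, and the erythroid and myelinating Schwann cell lists furthest left at -1.77 and -0.85. The neuronal lists lie near 0, and for the skeletal muscle list the fitted median and the per-library medians differ in sign.

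The genes that fell included 1 of Schwann cells. Drp2, a dystrophin-related protein of the Schwann cell membrane that pairs with periaxin, had the highest vehicle mean of the called genes and fell from 671, 605 and 515 CPM to 189 and 231 CPM (log2 -1.51 ± 0.17, adjusted p = 0.00163). Drp2 and Mgl2 were the only lower genes called under each of the 5 fits that left out 1 library. All 17 tested genes of myelinating Schwann cells had a fold change below 0, as did 8916 of all 17197 genes tested. Their median was -0.85, and 15 had libraries that did not overlap, as for 21.5% of all genes. Of the 17, Drp2 was the 1 that passed. Mbp, a main protein of compact myelin, was at 3453, 2217 and 2119 CPM with vehicle and 1125 and 1478 CPM with IMQ (log2 -0.996 ± 0.23, adjusted p = 0.0987). Mal, a myelin proteolipid, was at 558, 351 and 341 CPM against 198 and 233 CPM (log2 -0.95 ± 0.22, adjusted p = 0.0933). Vehicle 1 was the highest library for both. Without it the list's median was -0.59, without IMQ 1 it was -0.56, and without IMQ 2 it was -1.11. How much nerve root was dissected with each ganglion is not in the labels, and its part in these values was not tested.

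Other genes that fell follow, with the glucocorticoid-induced list. Pdk4, a kinase that turns cells from glucose to fat as fuel, fell from 23.4, 21.2 and 16.7 CPM to 8.33 and 8.38 CPM (log2 -1.29 ± 0.16, adjusted p = 0.00396). Klf15, a transcription factor induced by glucocorticoids, fell from 30.2, 24.4 and 19.2 CPM to 11 and 10.1 CPM (log2 -1.22 ± 0.22, adjusted p = 0.0299). Aldh6a1 of valine breakdown and Chdh of choline breakdown fell by 0.50 and 0.80 on the log2 scale, and were called in 0 and in 1 of the 5 fits that left out a library. Of 22 tested glucocorticoid-induced genes 19 had a fold change below 0, with a median of -0.36, and Pdk4 was the 1 called. Over all genes tested, 8916 of 17197 were below 0. Tsc22d3, a standard readout of glucocorticoid action, was at 286, 241 and 218 CPM against 165 and 174 CPM (log2 -0.55 ± 0.14, adjusted p = 0.132), while Fkbp5, another, was at 68, 73.4 and 78.5 CPM against 72 and 71.1 CPM. Fkbp5 overlapped between the groups, unlike Tsc22d3. Pdk4 was called in 3 of the 5 fits that left out a library, and not without IMQ 1 or IMQ 2. Klf15 was called in 1 of them, and not without vehicle 1 (adjusted p = 0.0641), vehicle 2, IMQ 1 or IMQ 2.

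Of the remaining genes that fell, Ogn, a small leucine-rich proteoglycan, went from 483, 427 and 375 CPM to 224 and 267 CPM (log2 -0.80 ± 0.14, adjusted p = 0.0193). Mme, the peptidase neprilysin, which cleaves substance P and other peptides, went from 50.9, 48.9 and 45.5 CPM to 26.1 and 27.8 CPM (log2 -0.85 ± 0.13, adjusted p = 0.00994). Slc36a2, an amino acid transporter, and Prrg3, a membrane protein with a Gla domain, fell by 1.26 and 1.23 on the log2 scale, at adjusted p of 0.00994 and 0.00329. Il16, a cytokine precursor, and Ccl28, an epithelial chemokine, fell by 0.79 and 1.92. F3, tissue factor, which starts blood clotting, fell by 0.53, from 46.7, 46.4 and 41.3 CPM to 30.9 and 31.1 CPM. Also lower were Rapgef3, Tmem267, Pamr1, Fgf4, Sec14l5, Limch1, Slc9a3, Efcc1, Ypel1, Ptpdc1, Magix, Arhgef37, Etnppl, Galnt16 and Slc36a1os, with log2 differences from -2.07 to -0.60. Of these, Rapgef3 was called in 4 of the 5 fits that left out a library, Slc36a1os in 3 and Efcc1 in 1. Tmem267, Pamr1, Fgf4 and Sec14l5 were called in 2. Limch1, Slc9a3, Ypel1, Ptpdc1, Magix, Arhgef37, Etnppl and Galnt16 were called in none. Without IMQ 2, Ogn, Mme, Slc36a2 and Ccl28 were not called (adjusted p = 0.0917, 0.108, 0.0676 and 0.317). Il16 and F3 were called in none of the 5 fits that left out a library (adjusted p = 0.0595 and 0.12 without vehicle 1). In vehicle 1, where myelin genes were highest, Drp2, Slc36a2, Ogn and Prrg3 were also at their highest, and whether these belong together was not tested.

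**Figure D4:**
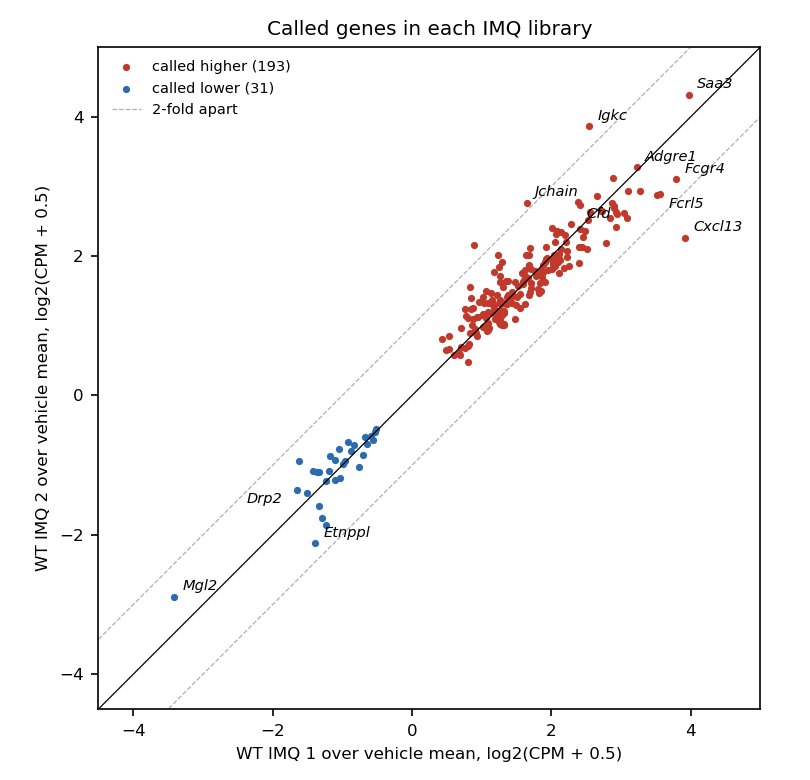
Each point is 1 of the 224 called genes, with its log2(CPM + 0.5) over the vehicle mean in WT IMQ 1 on the x axis and in WT IMQ 2 on the y axis. The solid line marks equal values and the dashed lines a 2-fold gap, which 4 genes exceed: Cxcl13 toward IMQ 1, and Igkc, Jchain and Igkv12-44 toward IMQ 2.

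Neuronal genes stayed near their vehicle level. The median log2 fold change was 0.05 for 15 pan-neuronal genes, 0.05 for 12 genes of peptidergic nociceptors, -0.02 for 19 of non-peptidergic and itch neurons and 0.004 for 12 of mechanoreceptors and proprioceptors. Beside 0.18% and 1.12% of all genes tested, none of these genes fell and 1 rose. It was Bdnf, the neurotrophin that nociceptors release in inflammation, with 42.4, 41.9 and 52.4 CPM with vehicle and 74.4 and 73.8 CPM with IMQ. Its log2 difference of 0.70 ± 0.12 passed (adjusted p = 0.0193). Bdnf was called in 1 of the 5 fits that left out a library. It was not called without vehicle 1 (adjusted p = 0.0559), vehicle 2, IMQ 1 or IMQ 2. The peptide genes Calca, of CGRP, and Tac1, of substance P, had log2 differences of -0.05 ± 0.21 and 0.20 ± 0.19. The heat and capsaicin receptor Trpv1 was at 142, 151 and 157 CPM against 178 and 143 CPM. None of 14 voltage-gated sodium channel genes, 85 genes of potassium channels or 10 genes of the Mrgpr itch receptors tested was called. Of all genes tested 1.3% were called, a share at which sets of this size would hold few calls or none. Of the genes that injured sensory neurons induce, Atf3 was at 15.7, 23.5 and 20 CPM against 13.4 and 15.4 CPM (log2 -0.46 ± 0.19, adjusted p = 0.632), and Sprr1a, Gal and Sox11 overlapped between the groups.

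Postn, the gene the series is about, was at 20.9, 26.3 and 21.3 CPM with vehicle and 49.7 and 43.3 CPM with IMQ. The groups did not overlap, but the log2 difference of 1.02 ± 0.21 missed the threshold (adjusted p = 0.0574). It passed in 4 of 14 other settings, with adjusted p from 0.00106 to 0.41 over them. Among 12 genes of periostin and its receptors, Itgam and Itgb2 rose, the chains of the integrin CD11b/CD18 of myeloid cells. Itgb2 went from 3.19, 4.82 and 3.65 CPM to 31.9 and 27.5 CPM (log2 2.93 ± 0.23, adjusted p = 0.000268). The integrin chains Itgav, Itgb3 and Itgb5, which periostin binds, had log2 differences of 0.06, -0.11 and -0.08, and none passed. Of 17 fibroblast and matrix genes none was called, beside 1.3% of all genes tested. Col3a1 and Thbs2 were higher in both IMQ libraries than in any vehicle library (log2 0.75 and 0.94), Lox, which cross-links collagen, was lower in both (log2 -1.16), and none of these 3 passed (adjusted p = 0.141, 0.146 and 0.0784).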

How the data were processed

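RNA of whole ganglia was sequenced as poly-A selected, strand-specific libraries in 150 bp read pairs, per the labels' protocols. What the authors deposited are whole-number read counts for Ensembl genes, not normalized. Per the submitters' processing notes the tools were Bowtie2 2.2.3, HISAT2 2.1.0 and TopHat2 on GRCm39, but which did what is not stated there. How reads were counted (tool, strand setting, annotation, filters) is not given in the sources used here. Counts of antisense or near-identical genes may therefore be mixed. No column of the table lacked a sample.

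Symbols came from GENCODE M21 for 55141 of 55487 genes. That table rests on another build, so no gene coordinates from it are printed. The 4 promoter windows are on GRCm38.p6, which is also not the build that the submitters name. Of Ensembl genes that share a symbol, the lists took the one with the higher mean. The test was edgeR's quasi-likelihood F test (version 4.0.16), robust and two-sided, on genes kept by filterByExpr with TMM factors. The 4 ganglion groups of both genotypes (10 libraries) shared 1 fit, because the IMQ group holds 2 libraries, and the contrast was WT IMQ minus WT vehicle. P-values were adjusted by Benjamini-Hochberg over all genes tested, and a gene was called below 0.05. The SE was taken as the absolute log2 fold change divided by the root of F. Ratios of reads for genes almost unread with vehicle carry exact 95% intervals. These cover counting error only and no spread between libraries, because reads were summed over the libraries of each group. The libraries carry no molecular identifiers, so even the counting error may be understated. The fit was tested on simulated counts with known changes.

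Members and gene lists were chosen with earlier results of these data known. Lists are described by counts and medians, with no test. Genes named in the text follow a rule: Postn and the sex-linked check genes; 15 called genes from each end of the fold changes, among those of at least 1 CPM in either group, not overlapping and with no placeholder name; all called lower genes with a gene name; up to 6 called members of each list, or up to 3 uncalled; defining cell markers; the 15 called genes with the highest mean; and the 10 with the smallest adjusted p. Some genes that the rule names are not reported here. Other named genes were chosen after their values were seen, among them uncalled members set beside called ones and genes with few counts. Alternatives were RLE and upper quartile scaling, other filters, DESeq2 1.42.0, limma 3.58.1 voom, a fit that is not robust, the 5 WT libraries alone, a replicate block and leaving out each library. R 4.3.3, Python 3.11.15 and RefSeq promoters were used.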

Additional observations from a re-analysis of the deposited data

How the results depend on the processing

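The count of called genes moved with the number of libraries and the tool. DESeq2 called 369 genes, 281 higher and 88 lower, and no filter on low counts gave 309, 250 and 59, over 31982 genes tested. The other alternatives that kept all 5 libraries, the block aside, gave 215 to 225 called genes, and a fit with a replicate block gave 180, 152 higher and 28 lower. Leaving out 1 of the 5 libraries gave 82 to 160 called genes, 77 to 145 higher and 3 to 15 lower. Without WT vehicle 1, 2 and 3 the counts were 160, 120 and 113, and without WT IMQ 1 and 2 they were 107 and 82. Of the 224 called genes, 71 were called in each of these 5 fits, 69 higher and 2 lower (Mgl2 and Drp2), and 153 were lost in at least 1. The direction was the same for all 224 genes under each alternative, except that 222 of them were tested under a minimum of 1 CPM in 2 libraries and 223 with the WT libraries alone. The replicate numbers were not taken to pair the samples, since only 2 numbers are shared. Residuals of same-numbered libraries correlated at 0.239 and 0.221 across 10942 genes, and those of crossed numbers at -0.239 and -0.221. Residuals of 2 IMQ libraries mirror each other, so these values cannot decide whether the samples were paired. Leaving out an IMQ library leaves 1, which is then assumed to vary like the other groups.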

Other observations

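Some genes outside the macrophage list, chosen after their values were seen, also rose. Pld4, an endolysosomal exonuclease, was at 6.45, 5.87 and 5.36 CPM with vehicle and 36.2 CPM in both IMQ libraries (log2 2.62 ± 0.14, edgeR adjusted p = 2.56e-05). Mpeg1, a pore-forming protein of macrophages, was at 10.3, 14 and 13.4 CPM against 62.7 and 71 CPM (log2 2.41 ± 0.16, adjusted p = 0.000124). Fcrls, a gene of microglia and some tissue macrophages, was at 7.81, 8.18 and 6.26 CPM against 66.2 and 45.3 CPM (log2 2.91 ± 0.20, adjusted p = 0.000124). Of the Ms4a family of membrane proteins 5 of 12 tested genes rose, among them Ms4a7 and Ms4a6d, with log2 differences of 2.43 and 2.21. Nckap1l, Rac2, Cd53 and Apbb1ip had log2 differences of 2.12, 2.52, 2.22 and 2.24, and Rac2 was called in 1 of the 5 fits that left out a library. Hpgds, which makes prostaglandin D2, had a log2 difference of 2.27 and was not called without IMQ 1. Tbxas1, thromboxane synthase, had one of 1.86 and was called in 2 of the 5 fits. Hpgd, which degrades prostaglandins, had one of 1.36.

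Values of further lists follow. The 4 globin genes tested were lower in both IMQ libraries than in any vehicle library, with a median log2 difference of -1.77. Libraries did not overlap for 21.5% of all genes tested, in either direction. Hbb-bs was at 68.2, 88 and 83.1 CPM with vehicle and 29.2 and 18.9 CPM with IMQ (adjusted p = 0.777). The SE of its log2 difference was 0.85, from the spread over all 10 ganglion libraries of both genotypes. Hbb-bs passed in 1 of 14 other settings. The amount of blood in the tissue was not measured. Among 16 clock genes, none called and 5 with a fold change above 0, Dbp, Per1, Per2 and Per3 were lower in both IMQ libraries (log2 -0.92 to -0.62) and Arntl, which peaks at the opposite time of day, was higher (0.52). The time of collection is not in the labels and its part was not tested. Of 10 adipocyte genes, Cfd was called (log2 2.82 ± 0.47, adjusted p = 0.0182) but not without vehicle 1, IMQ 1 or IMQ 2 (0.0553, 0.0736 and 0.172). Plin4 had a log2 difference of -1.26 that did not pass, and Adipoq was at 0.651, 0.839 and 0.2 CPM against 0.914 and 2.46 CPM. Ptgds, a gene of meninges and some glia, was at 467, 308 and 266 CPM with vehicle and at 50.3 and 404 CPM in IMQ 1 and 2, so that IMQ 1 lay below the vehicle range and IMQ 2 within it. The 10 skeletal muscle genes summed to 189, 8.65 and 140 CPM with vehicle and 87.2 and 115 CPM with IMQ, with vehicle 2 lowest.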
